A study of Mus musculus with 24 samples.

Results

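The genes that write and erase DNA methylation were examined for occupancy by the pausing factor NELF and the elongation factor DSIF in mouse embryonic stem cells. They are 7 of the 49997 genes listed in the RefSeq table of the build: the methyltransferase genes Dnmt1, Dnmt3a and Dnmt3b, their cofactor gene Dnmt3l, and the dioxygenase genes Tet1, Tet2 and Tet3. Members were the rows of the authors' 6 peak lists that overlapped a fixed mm10 window around each gene by at least 1 bp. The windows spanned 571 kb in all and held 591 of 1811308 listed regions. The measurements are chromatin immunoprecipitation followed by sequencing (ChIP-seq) of E14 cells, a mouse embryonic stem cell line, grown in serum and LIF. All 6 libraries are labelled as controls and carry the genotype "Nelfb deg", and the treatment protocol names DMSO and dTAG-13 as what was added to the medium. The cells are of 1 line, and the labels do not say whether it is a single clone. The antibodies were against the HA tag (labelled NELFB:HA), against NELFE and against DSIF (labelled SPT5), with 2 libraries each. The other 18 samples of the series, among them 7 treated with 500 nM dTAG-13 for 30 min, are not analysed here.

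NELF and DSIF bind RNA polymerase II shortly after it starts transcription and hold it in a paused state near the start site. Release of the pause evicts NELF, while SPT5 travels on with the polymerase through the gene. DNMT1 copies methylation onto the new strand after replication, and DNMT3A and DNMT3B set new methylation, helped by DNMT3L, which has no catalytic activity of its own. TET enzymes oxidise methylcytosine and so start its removal. Several of these genes have alternative promoters that are used in different cell types, among them the internal promoter of Dnmt3a that makes the short isoform DNMT3A2.

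Depth after filtering ran from 27324697 to 62312558 tags per library, and the lists from 137102 to 462153 regions. A region is called strong here where its deposited q-value was 0.01 or less. Tags were 100 and 101 bp long for SPT5, with a shared input, and 50 bp for NELF, with an input for each library, so antibody and sequencing batch cannot be told apart in any comparison with SPT5. Fold enrichments, pileups and q-values are the authors' own and are used within a list. The labels do not say whether replicates were separate cultures, so p-values measure the spread between these samples, which may be technical. These are bulk cells, in which weaker binding in every cell and binding in fewer cells cannot be told apart. No replicate pair shared a region with identical coordinates. Of 6 embryonic stem cell marker genes, 4 (Pou5f1, Sox2, Klf4 and Zfp42) had a strong region over a start site in both libraries of each antibody, and Nanog and Esrrb did not. None of the 4 markers of other lineages with a start site in the table (Alb, Myh6, Hbb-bt and Neurod1) had one.

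A strong region in both replicates was present at 6 genes for NELFE (all but Tet3), at 5 for NELFB:HA (all but Tet3 and Dnmt3a) and at 3 for SPT5 (Tet1, Tet2 and Dnmt1). Among 21887 protein-coding genes taken with 5 kb on each side, 48.3% had such a region for NELFE, 41.5% for NELFB:HA and 35.8% for SPT5. The same 3 genes, Tet1, Tet2 and Dnmt1, were strong in all 6 libraries, as were 33.5% of protein-coding gene windows. Tet3 was strong in both replicates of no antibody. The difference in counts between antibodies was not tested. The windows held 99 and 122 regions in the NELFB:HA libraries, 7 and 6 of them strong, where 2.97% and 1.85% of each list were strong. The NELFE libraries had 82 and 86 regions there with 9 and 9 strong, against 5.52% and 5.42% of their lists. In the SPT5 libraries 4 of 118 and 6 of 84 regions were strong, against 1.51% and 6.08%. The other 550 regions of the windows were weaker and are given by count. A stricter q-value of 1e-05 left 1 gene for SPT5, and 2 genes for each NELF antibody.

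The 7 genes have 13 start sites in the RefSeq promoter table (GRCm38.p6, the same build as mm10), and the regions were placed against them. Of these, 8 were covered by a strong region in at least 1 library, 5 in none, and 2, both of Dnmt1, in all 6 libraries. Over all 32851 start sites of the table, 19.5% were covered by a strong region in all 6 libraries, 28.9% in both NELFE, 24.7% in both NELFB:HA and 21.2% in both SPT5 libraries. Counted by gene, a start site was strongly covered in both libraries at 6 of the 7 genes for NELFE, and at 3 each for NELFB:HA and SPT5. Over 27025 genes the shares were 30.7%, 26.2% and 22.4%. Start sites are numbered from the 5′ end of each gene.

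**Figure D1:**
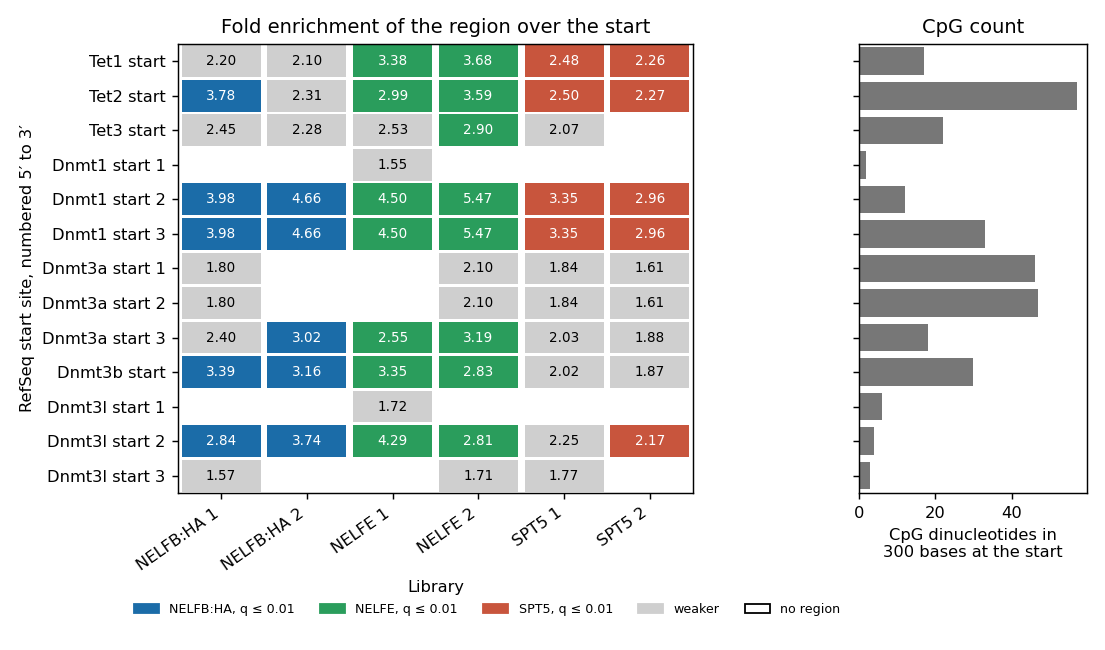
Left, the authors' fold enrichment of the region that covers each of the 13 RefSeq start sites (rows) in each library (columns), coloured where the q-value was 0.01 or less, grey where it was higher and blank where no region covered the site. Right, the number of CpG dinucleotides in the 300 bases around each start (250 before, 50 after); starts 2 and 3 of Dnmt1 lie under the same region in every library, and the start of Dnmt3l with strong regions has 4 CpGs.

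Dnmt1, the maintenance methyltransferase gene on chromosome 9 (gene span 20907206 to 20959888, minus strand, window chr9:20903000-20965000), carried the strongest region of the 7 genes in every library by pileup. The region covered start 2 (position 20952979) and start 3 (20952623) and left start 1 (20959888), which lies 6909 bp upstream of start 2, uncovered. In the NELFB:HA libraries it ran over chr9:20951403-20953355 and chr9:20952316-20954402 with fold enrichments of 3.98 and 4.66. For NELFE it ran over chr9:20950889-20954248 and chr9:20951394-20953333, with folds of 4.50 and 5.47. In the SPT5 libraries the folds were 3.35 and 2.96, over chr9:20951822-20953287 and chr9:20949414-20954362. All 6 libraries were thus well above threshold at the downstream starts. At start 1 a region was listed in 1 library, the first NELFE library, with a fold of 1.55 and below the q-value threshold. The upstream 250 bases of start 1 (chr9:20959889-20960138, minus strand) and of start 2 (chr9:20952980-20953229, minus strand) are shown from the RefSeq table because the factors separate them, with each CpG dinucleotide in capitals.
Dnmt1 start 1: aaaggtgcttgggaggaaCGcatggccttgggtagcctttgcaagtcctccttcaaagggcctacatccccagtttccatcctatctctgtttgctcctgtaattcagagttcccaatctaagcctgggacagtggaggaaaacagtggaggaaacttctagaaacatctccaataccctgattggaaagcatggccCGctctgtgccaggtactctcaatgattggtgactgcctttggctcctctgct
Dnmt1 start 2: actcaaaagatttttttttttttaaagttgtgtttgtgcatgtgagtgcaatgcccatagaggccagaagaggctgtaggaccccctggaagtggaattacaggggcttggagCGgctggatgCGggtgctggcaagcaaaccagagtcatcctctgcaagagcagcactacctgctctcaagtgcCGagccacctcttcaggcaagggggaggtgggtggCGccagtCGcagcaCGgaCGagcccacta
The 300 bases around the starts hold 2 CpGs at start 1, 12 at start 2 and 33 at start 3, where the median over all starts was 7.

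Dnmt3a, a de novo methyltransferase gene on chromosome 12 (3801559 to 3914443, plus strand, window chr12:3801000-3919000), had strong NELF regions at its internal start and weaker ones at or near its upstream starts. Start 3 (3891744) lies 84764 bp downstream of start 1 (3806980), and start 2 (3807160) 180 bp from start 1. At start 3 NELFB:HA had fold enrichments of 2.40 and 3.02, NELFE of 2.55 and 3.19, and SPT5 of 2.03 and 1.88. The second NELFB:HA library and both NELFE libraries were strong there, and the other 3 libraries were below the threshold. The NELFE regions (chr12:3889875-3892008 and chr12:3889795-3892166) lay mostly before the start, reaching 1869 and 1949 bp upstream and 264 and 422 bp downstream. A long noncoding RNA gene, Gm31623 (chr12:3879385-3894686), spans start 3 and these regions. Its signal and that of Dnmt3a cannot be told apart there. At starts 1 and 2 the folds were 1.80 in the first NELFB:HA library, 2.0997 in the second NELFE library and 1.84 and 1.61 in the SPT5 libraries, none of them strong. The other NELFB:HA and NELFE libraries listed no region over these starts but weak regions beside them. In the first NELFE library the nearest one upstream (chr12:3806205-3806661) had a fold of 2.66, above the 2.55 at start 3, and in the second NELFB:HA library it had a fold of 1.85 (chr12:3805942-3806636). The upstream 250 bases of start 1 (chr12:3806730-3806979, plus strand) and start 3 (chr12:3891494-3891743, plus strand) are shown because here the start rich in CpG is the one without a strong region.
Dnmt3a start 1: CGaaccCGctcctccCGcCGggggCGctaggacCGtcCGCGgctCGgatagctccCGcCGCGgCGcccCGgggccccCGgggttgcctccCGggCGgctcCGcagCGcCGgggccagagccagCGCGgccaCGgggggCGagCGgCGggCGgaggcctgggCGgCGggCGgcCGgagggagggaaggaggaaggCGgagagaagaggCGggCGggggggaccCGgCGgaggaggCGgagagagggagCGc
Dnmt3a start 3: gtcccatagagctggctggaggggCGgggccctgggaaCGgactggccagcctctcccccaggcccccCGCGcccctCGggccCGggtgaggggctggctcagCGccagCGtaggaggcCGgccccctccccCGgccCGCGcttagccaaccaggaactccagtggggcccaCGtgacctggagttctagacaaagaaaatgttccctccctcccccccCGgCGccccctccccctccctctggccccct
Start 1, without a strong region, has 46 CpGs in 300 bases, and start 3 has 18. At least 46 CpGs are found at 1.65% of all starts. Among the 403 starts within 2 CpGs of Dnmt3a start 1, 70.2% had a strong region in both NELFE libraries, and among the 2693 starts within 2 CpGs of start 3, 61.4% did. The motif GGGCGG, a binding motif of the SP factors, occurs on either strand 6 times at start 1 and 2 times at start 3, and at least 1 time at 35.7% of all starts.

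Dnmt3b, the other de novo methyltransferase gene (chromosome 2, 153649411 to 153687730, plus strand, window chr2:153644000-153693000), had NELF on its start site in all 4 NELF libraries. The fold enrichments were 3.39 and 3.16 for NELFB:HA (chr2:153648237-153650392 and chr2:153649391-153652027) and 3.35 and 2.83 for NELFE (chr2:153647482-153650353 and chr2:153648870-153651096). SPT5 regions covered the same start (position 153649449) with folds of 2.02 and 1.87 and did not reach the q-value threshold. The NELF regions therefore passed and the SPT5 regions did not, a difference in calls that was not itself tested. The start has 30 CpGs in 300 bases, and 75.7% of the 1845 starts within 2 CpGs of it were strong in both NELFE libraries. By pileup, the regions ranked 6922 and 4497 in the NELFB:HA lists, 9559 and 9246 in the NELFE lists and 7914 and 5428 in the SPT5 lists. These lists differ in length, so the ranks are not compared between them.

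Dnmt3l, the cofactor gene (chromosome 10, 78042287 to 78063622, plus strand, window chr10:78037000-78068000), had its strong regions over the middle of its 3 start sites. At start 2 (78049842) NELFB:HA had folds of 2.84 and 3.74, NELFE of 4.29 and 2.81, and SPT5 of 2.25 and 2.17, and all but the first SPT5 library were strong. Start 1 (78042287), 7555 bp upstream, was covered in 1 library, the first NELFE library, with a fold of 1.72, and start 3 (78055335) by weak regions in 3 libraries with folds of 1.57 to 1.77. In all libraries but the first SPT5 library the regions at start 2 lay mainly before it. They reached 2236 to 3037 bp upstream and 380 to 1401 bp downstream in those 5 libraries, and 2180 bp upstream and 3420 bp downstream in the first SPT5 library. The upstream 250 bases of start 1 (chr10:78042037-78042286, plus strand) and start 2 (chr10:78049592-78049841, plus strand) hold 5 and 4 CpGs.
Dnmt3l start 1: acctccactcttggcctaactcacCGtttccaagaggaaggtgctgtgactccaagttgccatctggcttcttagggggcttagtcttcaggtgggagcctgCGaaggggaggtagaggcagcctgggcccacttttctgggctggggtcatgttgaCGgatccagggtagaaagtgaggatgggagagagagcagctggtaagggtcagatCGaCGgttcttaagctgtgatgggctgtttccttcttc
Dnmt3l start 2: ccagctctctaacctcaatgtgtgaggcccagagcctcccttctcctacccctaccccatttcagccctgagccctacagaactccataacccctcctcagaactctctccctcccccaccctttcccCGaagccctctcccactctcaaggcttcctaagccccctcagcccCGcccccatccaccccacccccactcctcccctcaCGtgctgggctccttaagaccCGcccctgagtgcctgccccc
Start 2 has 4 CpGs in 300 bases, fewer than the 6 of start 1, and 68.6% of all starts have at least as many as start 2. Both counts lie below the median of 7 over all starts but within its quartiles of 3 and 20. Of the 11095 starts within 2 CpGs of start 2, 2.18% had a strong region in both NELFE libraries. None of the 13 member starts held TATAAA on either strand, a motif found at 13.6% of all starts.

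Tet1, the gene of the first TET dioxygenase (chromosome 10, 62804570 to 62887469, minus strand, window chr10:62800000-62914000), had unusually long regions that began upstream of its start site (62887324). In the NELFB:HA libraries the strong region was chr10:62890478-62900728, of 10251 bp, and chr10:62889385-62899325, of 9941 bp. Both lay wholly upstream of the start, which was covered by weak regions with folds of 2.203 and 2.101. The first NELFE library had a strong region of 2874 bp over the start and another of 13501 bp upstream (chr10:62889609-62903109), the longest region of its whole list. The second NELFE library joined both into 15675 bp (chr10:62883657-62899331), the 3rd longest of its strong regions. In the SPT5 libraries 1 region covered the start and both sides of it, with 37799 bp (chr10:62861651-62899449) and 43810 bp (chr10:62857159-62900968). These were the 10th and 9th longest strong regions of the lists and reached 25.7 and 30.2 kb into the gene and 12.1 and 13.6 kb upstream. The fold enrichments of the SPT5 regions were 2.48 and 2.26, those of the upstream NELF regions 2.79, 2.38 and 3.19, and that of the joined NELFE region 3.68. A long noncoding RNA gene, Gm51805, spans 62865670 to 62910643. It contains the Tet1 start, the 5′ part of Tet1, every strong NELF region of the window and most of each long SPT5 region. The signal of Tet1 and Gm51805 therefore cannot be told apart there. The small nuclear RNA gene Gm26479 (62893409 to 62893514) lies within the upstream stretch of the NELFB:HA regions. The part of these genes in the signal was not tested.

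**Figure D2:**
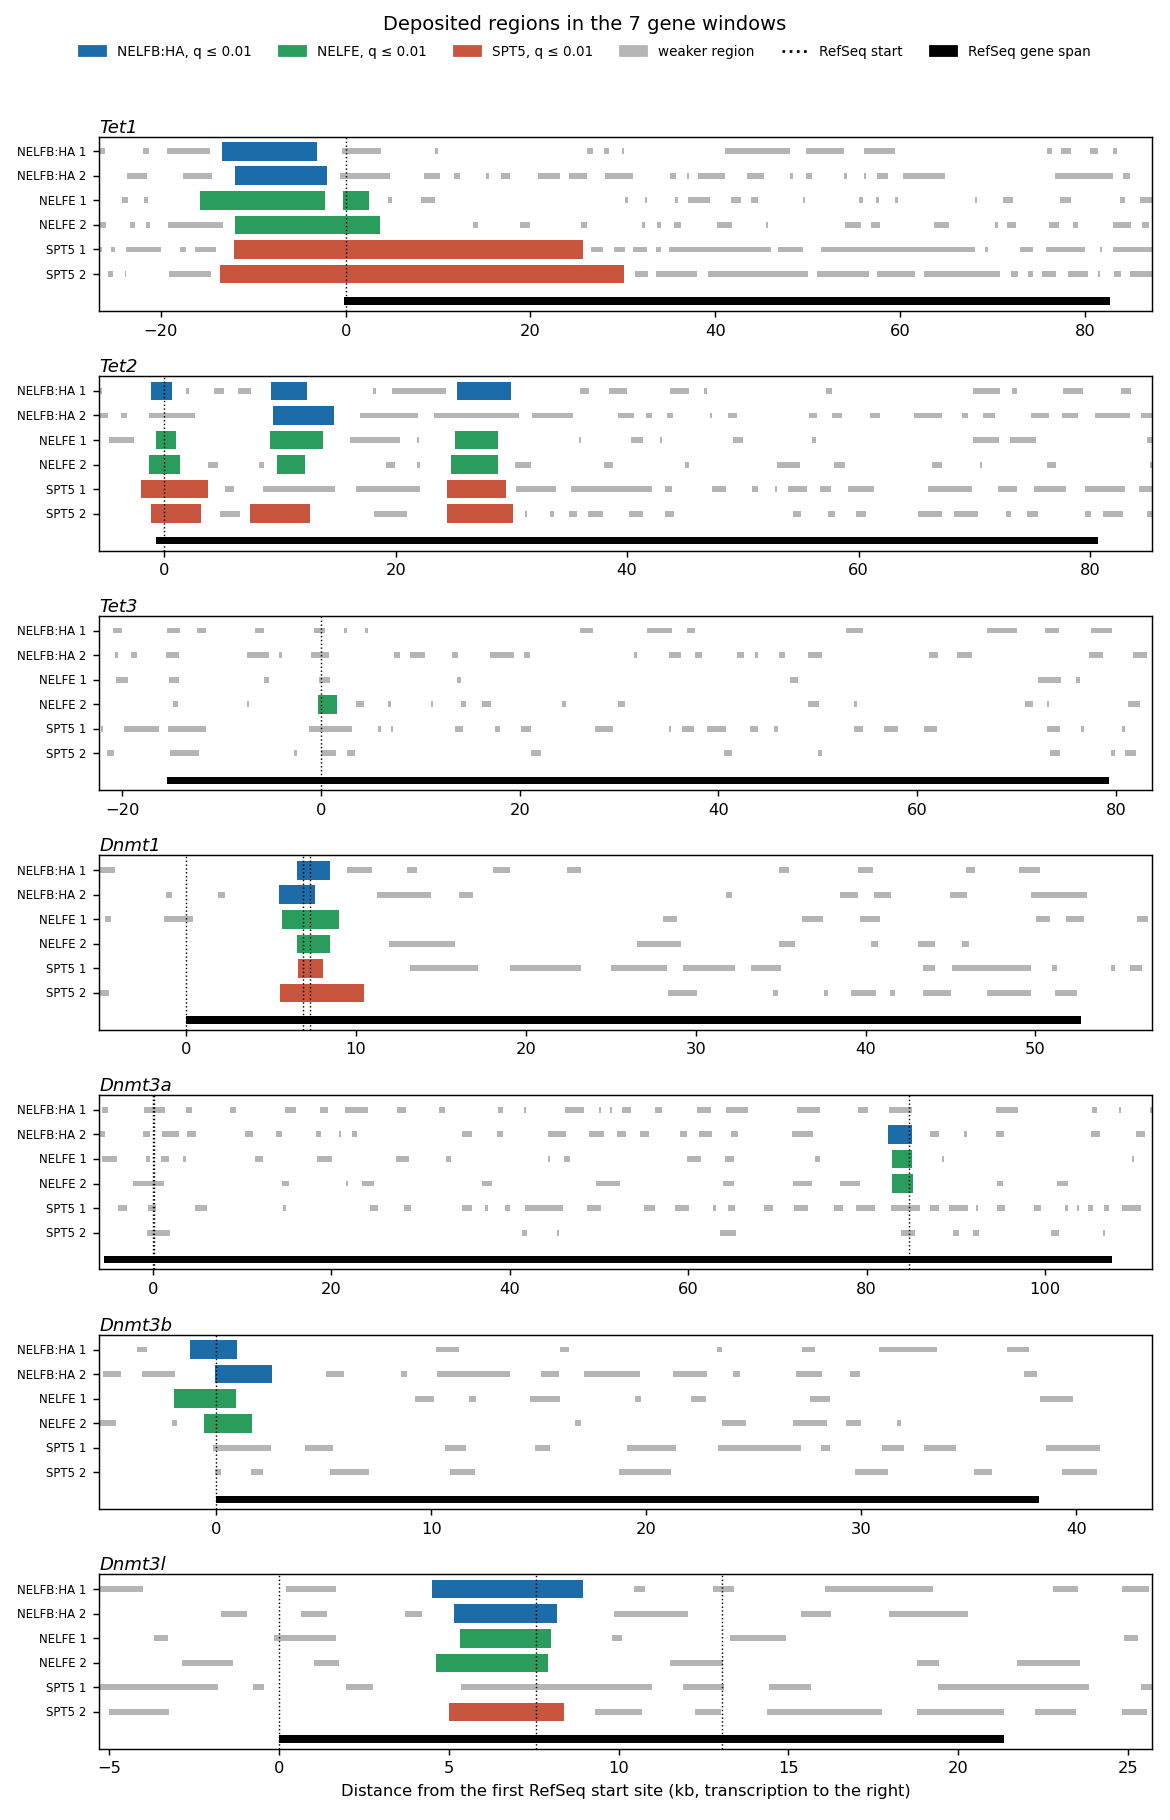
Every deposited region in the 7 gene windows by library, against the distance in kb from the first RefSeq start site with transcription to the right. Thick coloured bars have a q-value of 0.01 or less, thin grey bars are weaker, dotted lines are RefSeq start sites and the black bar is the gene span; the SPT5 bars of Tet1 run from upstream of the start to 25.7 and 30.2 kb inside the gene, and Dnmt1, Dnmt3a and Dnmt3l are strong at downstream starts.

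Tet2 (chromosome 3, 133463677 to 133545136, minus strand, window chr3:133459000-133550000) was bound at 3 separate places, its start site (133544390) and 2 sites within the gene. The middles of the inner sites lay 11.0 and 27.3 kb from the start. At the start site NELFB:HA had folds of 3.78 and 2.31, NELFE of 2.99 and 3.59, and SPT5 of 2.50 and 2.27, with the second NELFB:HA library below threshold. At the nearer inner site (chr3:133529756-133536966) they were 3.53 and 2.57, 4.79 and 4.02, and 2.44 and 2.61 in the same order, with the first SPT5 library below threshold. At the farther site (chr3:133514276-133519994) they were 2.52 and 2.00, 3.05 and 3.12, and 2.77 and 2.41, again with the second NELFB:HA library below threshold. Each of the 3 places was therefore strong in 5 of 6 libraries. The nearer inner site, and not the start, had the highest pileup of the window in all libraries except the first SPT5 library. The start of Tet2 has 57 CpGs in 300 bases, a number reached by 0.152% of all starts. Exon boundaries were not used here, so whether the inner sites are intronic is not given.

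Tet3 (chromosome 6, 83362373 to 83457208, minus strand, window chr6:83358000-83464000) had the weakest evidence of the 7 genes. Its 1 start in the promoter table (83441678) lies inside the gene span, whose 5′ end is at 83457208. A strong region over that start was found in the second NELFE library alone (chr6:83440022-83441985, fold 2.90). The start was covered by weak regions with folds of 2.45 and 2.28 for NELFB:HA, 2.53 in the first NELFE library and 2.07 in the first SPT5 library, and by none in the second SPT5 library. There, a weak region of 1514 bp (chr6:83440159-83441672) ended just short of the start, with a fold of 1.91. So 1 of 6 libraries passed at Tet3. In the second NELFB:HA and the first NELFE library the highest pileup of the window lay elsewhere, near the 5′ end of the gene (chr6:83455955-83457322 and chr6:83455973-83456932), also below the threshold. In the first SPT5 library it lay in a weak region of 325 bp near the 3′ end (chr6:83364877-83365201). A long noncoding RNA gene, B230319C09Rik, starts in the other direction 77 bp from the Tet3 start, and each region over the Tet3 start covered its start too, so the signal of the 2 genes cannot be told apart. Its 22 CpGs in 300 bases compare with 70.4% of 2648 starts within 2 CpGs that were strong in both NELFE libraries.

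Within each library the genes were then ordered by the pileup rank of their leading region, the region with the highest pileup in the window. Dnmt1 came first of the 7 in all 6 libraries, at rank 3206 and 2446 of the NELFB:HA lists, 4630 and 3220 of the NELFE lists and 2134 and 3193 of the SPT5 lists. As a share of the list, 0.462% to 2.33% of regions ranked at or above it, with a median of 1.21%. The median was 2.48% for Tet2, 2.99% for Dnmt3b, 3.05% for Dnmt3l, 3.37% for Tet1, 3.40% for Tet3 and 3.78% for Dnmt3a. The step of 1.27 percentage points between Dnmt1 and Tet2 was larger than the SD of either over the 6 libraries (0.829 and 0.968). The steps between the other neighbours, 0.0313 to 0.511, lay within their SDs of 0.968 to 2.73. These SDs include the spread between lists of different length, which all genes share. By order within a library, Tet2 was ahead of Tet1 and of Tet3 in all 6 libraries, and Dnmt3l was ahead of Dnmt3a in all 6. Dnmt3b ranged from 2nd to 7th of the 7 genes. Ranked by fold enrichment instead, Dnmt1 was first in 83.3% of libraries, since in the first NELFE library Tet2 had a fold of 4.79 against 4.50.

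**Figure D3:**
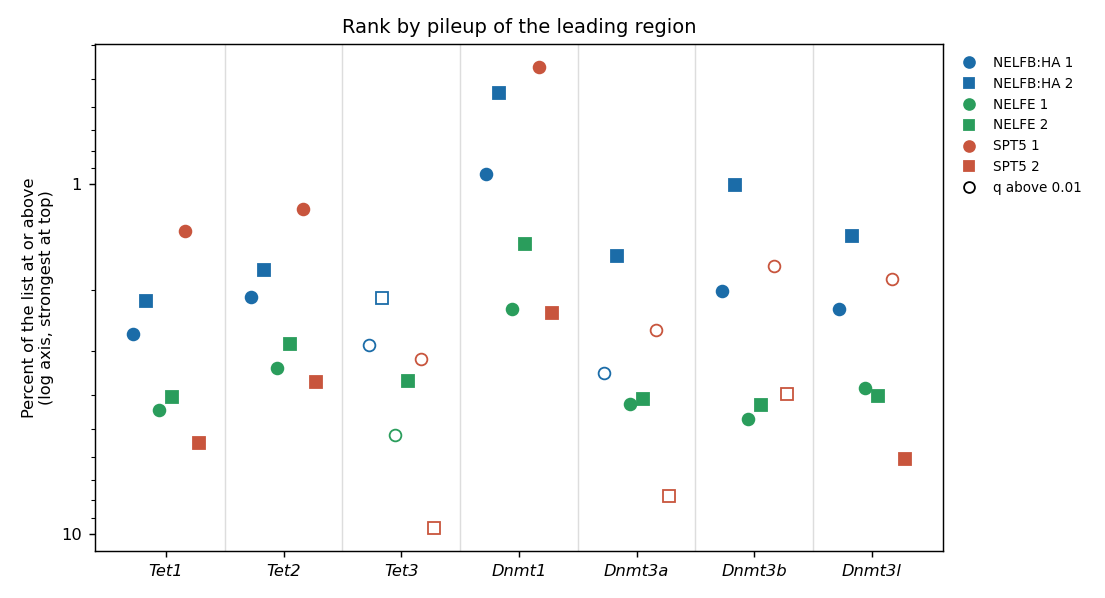
Percent of each peak list that ranks at or above the leading region of a gene by pileup (vertical log axis, strongest at the top) for the 7 genes, with 1 point per library; circles are replicate 1, squares replicate 2, and open points have a q-value above 0.01. In each library the point of Dnmt1 lies above those of the other 6 genes.

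The length of the leading region was compared between antibodies, with 21 comparisons over 7 genes and 3 antibody pairs. With 2 libraries against 2, the two-sided exact permutation test cannot give less than 0.33, and the smallest adjusted p over the 21 was 0.875, so no difference can pass. At Tet1 the mean was 40804.5 bp for SPT5, 10096 bp for NELFB:HA and 9274.5 bp for NELFE. SPT5 exceeded NELFE by 31530 bp against a pooled SD of 7071 bp and NELFB:HA by 30708.5 bp against 3009 bp (exact p of 0.33 and adjusted p of 0.875 for both). With the leading region chosen by fold enrichment these differences were 14918.5 and 14097 bp. In the first SPT5 library a weak region of 4576 bp then led, with a fold of 2.503 against 2.479 for the long region. In the first NELFE library the leading region was the one over the start, of 2874 bp, and the SPT5 regions were also longer than its upstream region of 13501 bp. At Tet2 SPT5 exceeded NELFE by 1985.5 bp (pooled SD 1131 bp, exact p of 0.33, adjusted p of 0.875). It exceeded NELFB:HA by 1306 bp (pooled SD 1053 bp, exact p of 0.33, adjusted p of 0.875), and by 17 bp without replicate 1. The leading region there sits at the start in the first SPT5 library and at the inner site in the other 5. At Dnmt1 the SPT5 lengths were 1466 and 4949 bp, below and above all 4 NELF lengths of 1940 to 3360 bp. At Dnmt3b they were 2702 and 277 bp against 2156 to 2872 bp in the NELF libraries.

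Tet1 and Tet2 were the genes, 2 of 7, whose leading region was longer in both SPT5 libraries than in all 4 NELF libraries. Tet2 met this narrowly, with a shortest SPT5 region of 5216 bp and a longest NELF region of 5199 bp. Of 16908 protein-coding gene windows with a region in all 6 libraries, 16.1% showed this. With regions over a start site alone, the count was also 2, of 6 genes that had such regions in all libraries, and these were again Tet1 and Tet2. At the start of Tet2 the SPT5 regions were 5758 and 4333 bp and the NELF regions 1736 to 3937 bp. The count went to 0 when the leading region was chosen by fold enrichment. It was 4 without replicate 1, where fewer libraries had to meet the rule, so it could not fall. At Dnmt3a the direction was opposite: SPT5 fell short of NELFE with a difference of -1043.5 bp (pooled SD 353 bp, exact p of 0.33, adjusted p of 0.875). In the first SPT5 library, however, the leading region of Dnmt3a (877 bp) was not at the internal start. Over that start the SPT5 regions were 3341 and 1542 bp, above and below the NELFE regions of 2134 and 2372 bp. The opposite direction therefore did not hold there.

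**Figure D4:**
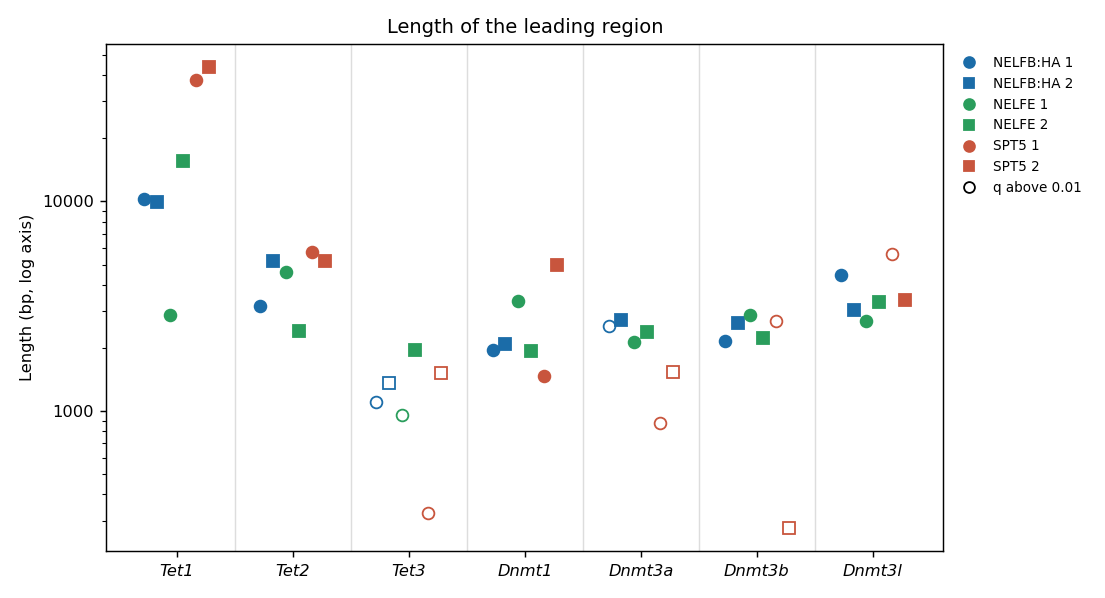
Length in bp (log axis) of the leading region of each gene in each library; circles are replicate 1, squares replicate 2, and open points have a q-value above 0.01. The SPT5 points of Tet1, at 37799 and 43810 bp, lie above its NELF points of 2874 to 15675 bp, and at Dnmt1 and Dnmt3b the SPT5 points spread across the NELF points.

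Of the summed windows, strong regions of NELFB:HA covered 4.99% and 4.48%, those of NELFE 6.56% and 6.40%, and those of SPT5 8.77% and 11.8%. Strong regions of the whole lists summed to 23963 and 22415 kb for NELFB:HA, 22167 and 25293 kb for NELFE and 28909 and 29464 kb for SPT5. More coverage by SPT5 was therefore not particular to these windows. In the windows, SPT5 exceeded NELFE by 3.81 percentage points (pooled SD 1.52) and NELFB:HA by 5.55 (pooled SD 1.54), and NELFB:HA minus NELFE was -1.74 (pooled SD 0.263). Each exact permutation p was 0.33, the smallest possible (adjusted p of 0.33 over 3 comparisons). Without replicate 2 the excess over NELFE was 2.22 points. The excess of SPT5 was largest in the Tet1 window, where strong regions covered 33.2% and 38.4% in SPT5, 14.4% and 13.7% in NELFE and 8.99% and 8.72% in NELFB:HA. In the Tet2 window they covered 11.9% and 16.8% in SPT5, 11.0% and 9.96% in NELFE and 10.6% and 5.71% in NELFB:HA. The Tet3, Dnmt3a and Dnmt3b windows had no strong SPT5 region. Without the Tet1 window, a choice made after seeing the data, SPT5 minus NELFE was -0.659 points (exact permutation p of 1) and SPT5 minus NELFB:HA 0.220 points (exact permutation p of 1).

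Other genes of the pathway were read at their start sites from a list of 29, of which 24 had an entry in the promoter table. A strong region in both replicates was found at 17 of the 24 with either NELF antibody and at 15 with SPT5, where the shares over 27025 genes were 26.2% (NELFB:HA), 30.7% (NELFE) and 22.4% (SPT5). Maintenance cofactors were covered at 5, 5 and 6 of 6 genes, enzymes that remove oxidised bases at 5, 5 and 3 of 8, readers and regulators at 6, 6 and 5 of 8, and the oxoglutarate suppliers Idh1 and Idh2 at 1, 1 and 1 of 2. The strongest by mean share of the list at or above them were Mbd3, a subunit of the NuRD complex (0.266%), Pcna, the replication clamp (0.301%), and Trim28, a corepressor (0.331%). The lowest were Cxxc4, with no region over its start in any library, and Xrcc1 and Idh2, each of which lacked a region in 1 library and was set to 100% there. On the same measure, over start sites, Dnmt1 stood at 1.34%, behind 8 genes of that list, and Dnmt3a at 4.03%. Tet3, set to 100% in the second SPT5 library, stood last of the members at 19.97%.

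Likeness of pattern was measured as the Euclidean distance between genes in the share of the list at or above the start-site region over the 6 libraries. Nearest to Dnmt1 were Hells, a chromatin remodeller needed for methylation (1.55 percentage points), the ligase gene Lig3 (1.56) and Kdm1b (1.96). Ogt, which encodes a TET-binding glycosyltransferase, and Usp7, a deubiquitinase that binds DNMT1, were nearest to Dnmt3l (1.22 and 1.49), before Ehmt2 (3.52). Both were among the 3 nearest to Dnmt3a, Dnmt3b, Tet1 and Tet2 too, so their likeness was not particular to 1 gene. Kdm2b came second for Dnmt3a (2.98) and Setdb1 second for Dnmt3b (3.44). Usp7 and Ehmt2 were nearest to Tet1 and Tet2, before Ogt. For Tet3, a weak region in the second SPT5 library ended just short of the start, so the gene was set to 100% there. Nearest to Tet3 was Idh2 (3.40), which lacked a start-site region in the same library, followed by Mbd4 at 92.2 and Ogt at 93.3.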

How the data were processed

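Peak lists of 6 ChIP-seq libraries were analysed, 2 per antibody, grouped by their titles. Per the file headers, the authors called peaks with MACS 2.1.1.20160309 in broad mode (p-value of 0.01, joined at 0.1), 1 library at a time against an input, with at most 1 tag per position and without pooling replicates. Bowtie2, MACS2, deepTools and mm10 are named in the submitters' processing notes. The deposited pileup is the mean coverage signal of a region after scaling to the smaller library, so it was ranked within a list and not compared between lists. Deposited fold enrichment is a ratio, ChIP signal over local input. The authors also deposited a −log10 p-value and a −log10 q-value for every region. Per the file headers no q was calculated, yet the q-value column is filled, and it was taken as the authors' q-value. Region ends follow the authors' weak p-value, so lengths depend on depth and extension (206 bp for SPT5, 227 bp for NELF).

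Regions overlapping a window or a start site by at least 1 bp were counted. Genes, start sites and promoter sequences came from RefSeq tables of GRCm38.p6. The genes named are the 7 members, the 3 most and 3 least occupied genes of the pathway list and the 3 nearest in pattern to each member. Overlapping genes, and weak regions over start sites, were added after their values were seen. The members and lists were chosen with earlier results of these data known, as were the motifs. Antibodies were compared by two-sided exact permutation over libraries with Benjamini-Hochberg adjustment (python 3.11.15, numpy 2.4.6, pandas 2.3.3). The overlap and ranking steps were tested on simulated data. Depth was 27324697 to 62312558 filtered tags. Alternatives were another q-value threshold, all regions, other rankings, start sites, summed lengths, a replicate block and leaving out each replicate.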

Additional observations from a re-analysis of the deposited data

How the results depend on the processing

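Over 37 results and 228 alternatives, 186 were labelled the same, 32 moved and 10 reversed. For tested differences, the same meant an unchanged sign and significance call, so size was not judged and no call could change. The replicate block always counted as the same. Alternatives without a replicate were judged by the size of the change alone, so a changed sign was not counted as reversed. At Dnmt1, SPT5 minus NELFB:HA length went from 1187.5 to -487 bp and was labelled the same. The cause was not tested, and 3 alternatives (start sites for presence and for length, and leaving out the Tet1 window) were chosen after seeing the data. Of 147 length alternatives 20 moved and 6 reversed, and of 28 rank alternatives 1 moved. Genes strong in both replicates went from 5 to 2 (q-value of 1e-05) or 3 (start sites) for NELFB:HA, from 6 to 2 for NELFE at a q-value of 1e-05, and from 3 to 1 at that value or 7 with every region for SPT5. Leaving out a replicate gave 5 to 6, 6 to 7 and 3 to 4. It asks for a strong region in the remaining library alone, so these counts could not fall. Genes with longer SPT5 regions were 0 by fold enrichment, and 3 to 4 with a replicate left out, where the count again could not fall. The covered share, SPT5 minus NELFE, was -2.61 points at a q-value of 1e-05, -0.659 without the Tet1 window and 2.22 to 5.41 without a replicate. SPT5 minus NELFB:HA was -0.910 at a q-value of 1e-05 and 3.79 to 7.32 without a replicate. NELFB:HA minus NELFE was 9.79 with every region and -1.91 to -1.57 without a replicate. With summed strong lengths, NELFB:HA minus NELFE was -5929 bp at Tet1, -2088.5 bp at Tet2 (-5.5 bp for the region leading by fold) and -894 bp at Dnmt3a, and at Dnmt3l SPT5 minus NELFE was -1305 bp and SPT5 minus NELFB:HA -2038.5 bp.

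Same-numbered libraries did not deviate together over 10028 start sites. The r was -0.0159 for SPT5 and NELFE, -0.0250 for SPT5 and NELFB:HA, and -0.0128 for NELFB:HA and NELFE. Whether same-numbered libraries came from a shared culture was not tested. With the replicate block the differences in covered share were again 3.81, 5.55 and -1.74 points, with SDs of 2.26, 2.50 and 0.245 and an exact p of 0.5, the smallest a block of 2 pairs allows. The part of depth in what passed was not tested: the SPT5 list of 27324697 tags had 6978 strong regions and that of 62312558 tags 8329, while the NELFE list of 28944909 tags had 11770 and that of 40260648 tags 11234.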

Other observations

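The starts of Aire, Dnmt3aos and Gm31623, other genes in the windows, had no strong region. The start of Aire, a transcription factor gene that overlaps the 5′ end of Dnmt3l on the other strand (chr10:78030022-78043610), was covered by weak regions in the 4 NELF libraries, with folds of 1.56, 1.60, 1.72 and 2.32, and by none in the SPT5 libraries. The antisense gene Dnmt3aos and the long noncoding RNA gene Gm31623, which spans the internal start of Dnmt3a (chr12:3879385-3894686), were each covered at their own start in the second NELFB:HA and first SPT5 libraries alone, with folds of 1.62 and 1.58 and of 1.74 and 1.59.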
